A study of Brassica napus with 18 samples.

Results

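Cytokinin response regulators and cytokinin oxidases of Brassica napus (oilseed rape) were taken from a gene table of 18 RNA-seq libraries as every gene whose Swiss-Prot description reads two-component response regulator ARR or cytokinin dehydrogenase. The rule found 120 of 108207 genes. By the Arabidopsis name of the best Swiss-Prot match, 46 were type-A response regulators, 43 type-B, 6 type-C and 25 cytokinin dehydrogenases, also called cytokinin oxidases (CKX). The name is that of the Arabidopsis match, so several rape genes carry the same name, and the roles given here are those known from Arabidopsis thaliana.

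Cytokinins are plant hormones that promote cell division in the shoot and delay leaf ageing. In Arabidopsis, AHK receptor kinases pass a phosphate through AHP carrier proteins to the type-B regulators, which are transcription factors that switch on cytokinin-responsive genes. Type-A regulators are among those genes and dampen the signal, which makes their transcripts a common readout of cytokinin response, and CKX enzymes degrade the hormone itself.

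The study asked which pathways BnaGRP3, a glycine-rich protein gene, touches under salt stress. Poly(A) RNA came from wild type (WT) and 1 mutant line, bnagrp3, named bngrp3#2 in the study's design. Plants of both genotypes were grown for 3 weeks in Hoagland's solution and sampled as mock, or after salt (200 mM NaCl) for 4 h or 8 h, with 3 libraries in each of 6 groups. The labels give the tissue as leaf and the protocol as the aboveground part. They do not say which GRP3 copies are mutated, and they name no transgene. Mock columns are headed 0 h, so no mock sample matches the salt samples in time of day. Nothing states that replicates came from separate plants, so p-values measure how far these libraries scatter, and that scatter may be technical.

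Values are TPM, a level scaled for gene length and library size that keeps no read depth, so the depth of each library is unknown. Of 13 genes described as GRP3, 11 were tested, and 6 were called lower and 1 higher in bnagrp3 mock. BnaA07G0050000ZS lay between 16.93 and 24.38 TPM in WT mock and between 0.88 and 1.91 TPM in bnagrp3 mock. The abundant copies BnaC03G0480300ZS and BnaA03G0387800ZS were at 0.68 and 0.62 of WT in mock, on the scale of TPM + 1. A further abundant copy, an unplaced gene model, averaged 460 TPM in WT mock and was at 0.0025 of WT in bnagrp3 mock on that scale. Bnascaffold0025G0035900ZS was 2.59-fold higher in bnagrp3 mock and 26.95-fold higher at 8 h. Transcripts of the 62 chlorophyll a-b binding proteins, which mark green tissue, summed to between 42125 and 92733 TPM over the libraries, and of 22 Casparian strip protein genes, which mark root endodermis, 20 were at 0 and the sum never passed 0.15 TPM. WT libraries differed in a set of 326 genes whose level was 5 TPM or more in each bnagrp3 library but at or under 0.2 TPM in at least 2 WT libraries. The median level of that set, relative to the mean of bnagrp3 under the matching treatment, was 0.23, 0.25 and 0.21 in WT mock replicates 1 to 3, then 0, 0.67 and 0.23 at 4 h, and 0.17, 0 and 0.37 at 8 h. None of the 120 genes is in that set, and the other cytokinin genes described below were not checked against it. The lowest libraries, WT 4 h replicate 1 and WT 8 h replicate 2, were left out singly but not together. WT 4 h replicate 2 and WT 8 h replicate 3 stand apart as the highest. Where a named call that rests on WT salt libraries changes without both of these highest libraries, the value without them is given.

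Of the 120 genes, 61 reached 1 TPM in at least 3 of 18 libraries and were tested, which were 33 type-A, 19 type-B and 9 CKX genes. The other 59 stayed low, and 18 of them were listed at 0 in every library. All 6 ARR22 genes, the type-C regulators, were among those 18. No library gave an untested gene more than 3.2 TPM, a level seen for ARR9 BnaC07G0343900ZS in bnagrp3 mock replicate 3. CKX1 with 6 genes, CKX2 with 4 and CKX4 with 3 never passed 0.34, 0.31 and 0.07 TPM. ARR17 with 4 genes and ARR21 with 8 never passed 0.45 and 0.15 TPM. Because a gene could pass through the group where it is high, 1 type-A gene had no salt library at 1 TPM, and 1 CKX and 1 type-B gene had no mock library there, and such genes had to differ.

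**Figure D1:**
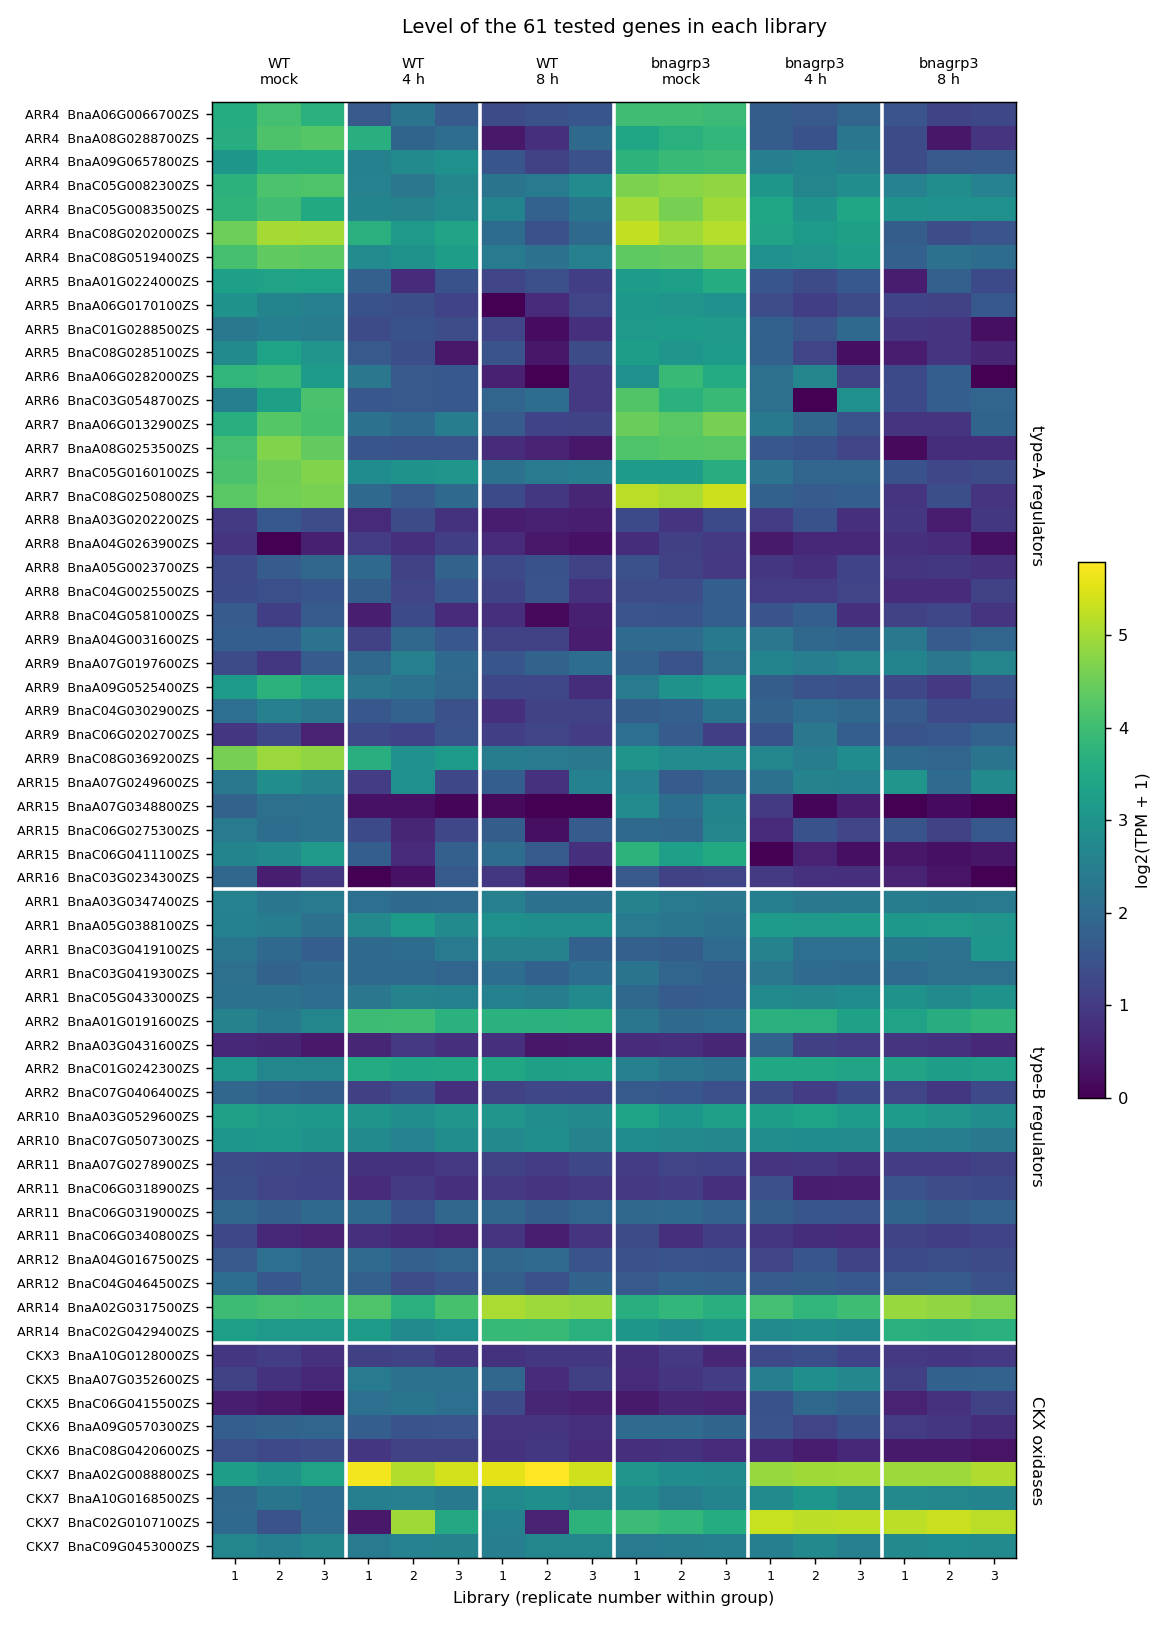
Heat map of the level of the 61 tested genes, as log2(TPM + 1), with 1 line per gene grouped by class and Arabidopsis name and 1 column for each of the 18 libraries grouped by genotype and treatment. Bright colours mark high levels. Most type-A genes are brightest in the mock columns of both genotypes, while CKX7 BnaA02G0088800ZS is brightest in the salt columns.

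Most type-A regulators were lower after salt than in mock in both genotypes. Their summed level was 266, 346 and 337 TPM in the WT mock libraries, 111, 96.3 and 102 TPM after 4 h of salt, and 60.5, 50.1 and 60.0 TPM after 8 h. In bnagrp3 the sum was 348, 324 and 375 TPM in mock, 103, 92.6 and 101 TPM at 4 h, and 64.6, 59.1 and 63.8 TPM at 8 h. The 3 treatments did not overlap in either genotype. In these bulk samples fewer cells of a type and less RNA per cell cannot be told apart. Leaf transcripts were lower after salt too: those of Rubisco small subunit genes averaged 72121 TPM in WT mock, 35132 TPM at 4 h and 23042 TPM at 8 h, and 73551, 33318 and 26179 TPM in bnagrp3. Those of the chlorophyll a-b binding proteins averaged 77375, 47321 and 43509 TPM in WT and 90031, 51423 and 50820 TPM in bnagrp3. The part these shifts play in the type-A values was not tested.

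Gene by gene, with limma on log2(TPM + 1) and a call at a Benjamini-Hochberg adjusted p under 0.05 over all 57923 genes tested, 23 of 33 type-A genes were lower in WT at 4 h, where 20.5% of all genes were called lower. At 8 h in WT 26 of 33 were lower, where the figure for all genes was 17.3%. In bnagrp3, 21 of 33 were lower at 4 h beside 23.5% of all genes, and 23 of 33 at 8 h beside 18.4%. Of the 33 genes, 3 had fewer than 3 salt libraries at 1 TPM, so the filter can raise the lower counts to that extent. By limma 1, 0, 1 and 1 type-A genes were called higher (in WT at 8 h, 1 had an unadjusted p under 0.05), where 26%, 29%, 28.7% and 31.3% of all genes were called higher in the same order. The median type-A difference was -1.27, -1.68, -1.39 and -1.98 on the log2 scale, while that of all genes was 0.06, 0.14, 0.06 and 0.14. All 4 comparisons use the mock libraries of their genotype at both times, so the 4 h and 8 h values share controls. Without both WT libraries that stand apart, 8 of 61 members were called higher and 29 lower in WT at 4 h and 9 and 29 at 8 h, beside 9 and 28 and 8 and 31 with them. Of the named WT salt calls of members, 12 of 13 at 4 h and 10 of 12 at 8 h held without both, and those lost were ARR10 calls.

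The fall covered whole groups of copies. All 7 ARR4, 4 ARR5, 2 ARR6 and 4 ARR7 genes tested were called lower in each of the 4 salt comparisons, as were 2 of 4 ARR15 genes and ARR9 BnaA09G0525400ZS, which makes 20 type-A genes. Of these, ARR15 BnaA07G0348800ZS had fewer than 3 salt libraries at 1 TPM and passed the filter through mock libraries, so nothing is read from its calls. How many of all genes were lower in all 4 comparisons was not counted, so the 20 has no share of all genes beside it. Of 5 ARR8 genes, whose Arabidopsis namesake responds weakly to cytokinin, 0 and 2 were called lower by limma in WT at 4 h and 8 h and 0 and 1 in bnagrp3, with 1 lower at an unadjusted p under 0.05 at 4 h in each genotype. No ARR8 gene passed 2.94 TPM, and their sum was at 82.0% of mock at 4 h and 47.3% at 8 h in WT and at 68.5% and 54.3% in bnagrp3. The ARR16 gene tested was called in none, with 1 unadjusted p under 0.05, in bnagrp3 at 8 h, and the sum of both ARR16 genes, 2.18 TPM in WT mock, was at 39.3% of mock in WT and 19.9% in bnagrp3 at 8 h.

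ARR7, a type-A regulator that acts in the shoot meristem of Arabidopsis, held the largest falls on the log2(TPM + 1) scale. ARR7 BnaA08G0253500ZS stood at 15.8, 25.0 and 20.1 TPM in WT mock, at 1.93, 1.83 and 1.79 TPM at 4 h and at 0.66, 0.46 and 0.30 TPM at 8 h. In bnagrp3 it stood at 17.4, 18.2 and 18.6 TPM in mock, 1.98, 1.75 and 1.33 TPM at 4 h and 0.10, 0.68 and 0.68 TPM at 8 h. All salt libraries lay below all mock libraries, and within each genotype all 8 h libraries lay below all 4 h libraries. The log2 difference from mock in WT was -2.88 at 4 h (SE 0.17, adjusted p = 6.58e-09), then -3.84 at 8 h (adjusted p = 3.22e-10), and -2.83 (adjusted p = 7.02e-09) and -3.71 (adjusted p = 4.41e-10) in bnagrp3. Summed over its genes, ARR7 fell to 18.9% of the mock mean at 4 h and 9.07% at 8 h in WT, and to 11.8% and 5.42% in bnagrp3. The other ARR7 genes are BnaA06G0132900ZS, BnaC05G0160100ZS and BnaC08G0250800ZS. On the log2(TPM + 1) scale the last of these had the deepest fall of any member, -4.15 (SE 0.17, adjusted p = 1.13e-10) at 8 h in bnagrp3. That scale understates falls to low levels, so the order can differ in plain TPM.

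ARR4, which binds the light receptor phytochrome B in Arabidopsis, had the highest summed level of the type-A names in mock. Its 7 genes summed to a mean of 113 TPM in WT mock, 40.9 TPM at 4 h and 19.8 TPM at 8 h, and to 149, 40.8 and 21.3 TPM in bnagrp3. The most abundant type-A gene was ARR4 BnaC08G0202000ZS, at 22.03, 31.46 and 30.99 TPM in WT mock, 11.8, 7.68 and 9.38 TPM at 4 h and 3.11, 1.70 and 3.02 TPM at 8 h. Its bnagrp3 libraries gave 37.2, 29.8 and 34.4 TPM in mock, 9.40, 7.94 and 8.78 TPM at 4 h and 2.28, 1.57 and 1.87 TPM at 8 h. The 3 treatments were again separate in both genotypes. It fell by 1.46 (SE 0.19, adjusted p = 1.51e-05) and by 3.02 (adjusted p = 7.58e-09) on the log2 scale at 4 h and 8 h in WT, and by 1.84 (adjusted p = 1.08e-06) and 3.58 (adjusted p = 1.22e-09) in bnagrp3.

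ARR5 and ARR6, rapid cytokinin-response genes in Arabidopsis, followed. The ARR5 genes summed to a mean of 26.6 TPM in WT mock, 6.42 TPM at 4 h and 4.01 TPM at 8 h, and to 32.9, 7.07 and 4.21 TPM in bnagrp3. The ARR6 genes summed to 21.8, 4.72 and 2.77 TPM in WT and 25.0, 6.61 and 3.44 TPM in bnagrp3. ARR6 BnaA06G0282000ZS was less even between replicates, with 12.97, 14.19 and 8.21 TPM in WT mock against 0.45, 0 and 0.94 TPM at 8 h, and 6.68, 13.91 and 10.81 TPM in bnagrp3 mock against 1.48, 2.32 and 0 TPM. Even so its groups did not overlap, and the 8 h difference was -3.15 (SE 0.45, adjusted p = 4.23e-05) in WT and -2.45 (adjusted p = 0.00035) in bnagrp3.

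ARR9 BnaA07G0197600ZS went the other way. It read 1.49, 0.93 and 2.20 TPM in WT mock and 2.81, 4.72 and 2.95 TPM at 4 h, and 2.51, 1.78 and 3.38 TPM in bnagrp3 mock against 5.14, 4.58 and 5.17 TPM at 4 h. The 4 h libraries of both genotypes lay above their mock libraries. It rose by 0.83 (SE 0.22, adjusted p = 0.00574) in WT and 0.77 (adjusted p = 0.00783) in bnagrp3 at 4 h, and by 0.71 (adjusted p = 0.0135) at 8 h in bnagrp3. The last call was lost without bnagrp3 mock replicate 2 (adjusted p = 0.0708), and the WT 8 h difference of 0.52 missed the threshold (adjusted p = 0.0642).

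**Figure D2:**
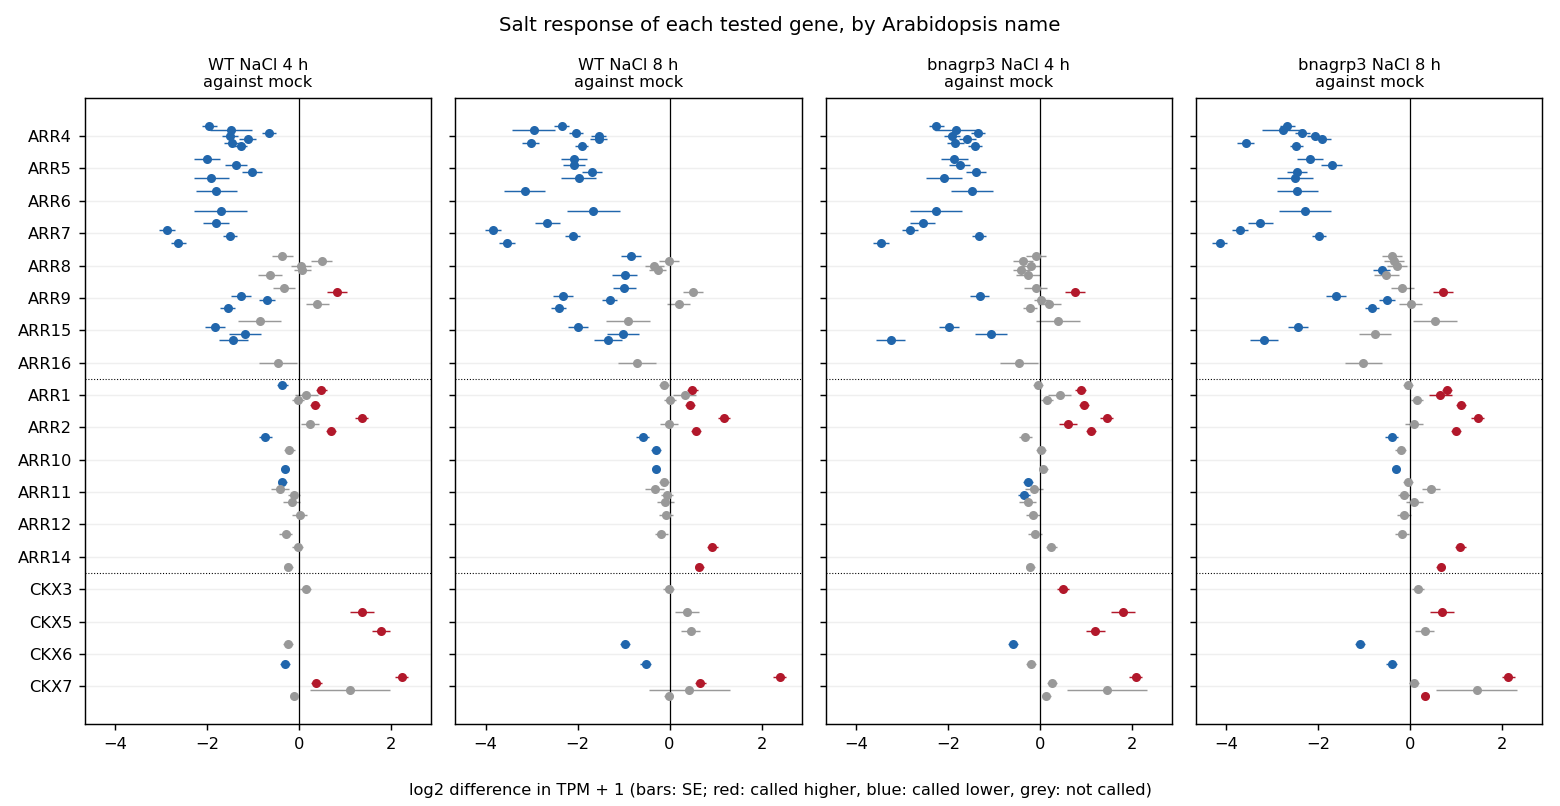
Log2 difference from mock on the log2(TPM + 1) scale, with its standard error, for each tested gene arranged by Arabidopsis name, in panels for the 4 salt comparisons. Red points were called higher, blue points lower and grey points were not called. The ARR4, ARR5, ARR6 and ARR7 rows are blue throughout, and the leftmost point is ARR7 BnaC08G0250800ZS at -4.15 in bnagrp3 at 8 h.

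Type-B regulators, the transcription factors of the pathway, did not share a direction. Of 19 tested in WT, 4 were called higher and 4 lower at 4 h and 6 and 3 at 8 h, while bnagrp3 had 5 and 2 at 4 h and 7 and 2 at 8 h. The higher calls are 21.1%, 31.6%, 26.3% and 36.8% of the type-B genes tested, close to the 26% to 31.3% of all genes called higher. The median type-B difference was -0.10, -0.05, 0.03 and 0.09 on the log2 scale in the same order. The summed type-B level averaged 83.2 TPM in WT mock, 91.0 TPM at 4 h and 113 TPM at 8 h, while bnagrp3 averaged 70.5, 93.8 and 109 TPM.

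ARR2, which acts with the receptor AHK3 to delay leaf ageing in Arabidopsis, had genes that rose early and stayed up. ARR2 BnaA01G0191600ZS stood at 4.99, 4.08 and 5.30 TPM in WT mock, 14.72, 14.89 and 11.90 TPM at 4 h and 11.96, 12.06 and 12.26 TPM at 8 h. In bnagrp3 it stood at 3.82, 3.00 and 3.25 TPM in mock, 12.04, 11.76 and 9.02 TPM at 4 h and 9.07, 11.29 and 12.85 TPM at 8 h. Salt and mock libraries were separate in both genotypes, while 4 h and 8 h libraries overlapped. The rise was 1.36 (SE 0.14, adjusted p = 1.49e-06) and 1.18 (adjusted p = 5.71e-06) in WT and 1.45 (adjusted p = 5.66e-07) and 1.46 (adjusted p = 6.1e-07) in bnagrp3. ARR2 BnaC01G0242300ZS rose by 0.69 (adjusted p = 0.000127) in WT and 1.12 in bnagrp3 at 4 h. ARR2 BnaC07G0406400ZS fell instead, by 0.74 (adjusted p = 0.000499) in WT at 4 h, and its difference in bnagrp3 at 4 h was -0.32 (adjusted p = 0.0678).

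ARR14 rose late. ARR14 BnaA02G0317500ZS, the most abundant type-B gene, read 14.78, 15.86 and 15.40 TPM in WT mock, 17.21, 11.87 and 16.34 TPM at 4 h and 32.30, 29.57 and 28.37 TPM at 8 h. In bnagrp3 it read 11.47, 13.26 and 11.61 TPM in mock, 15.75, 13.15 and 14.88 TPM at 4 h and 28.66, 27.49 and 24.55 TPM at 8 h. The 8 h libraries stood above all others, and the 4 h libraries overlapped mock in both genotypes. At 4 h the difference was -0.03 (adjusted p = 0.841) in WT and 0.25 (adjusted p = 0.0918) in bnagrp3. At 8 h it rose by 0.93 (SE 0.12, adjusted p = 1.44e-05) and 1.09 (adjusted p = 2.61e-06). The other ARR14 gene, BnaC02G0429400ZS, rose at 8 h by 0.65 (adjusted p = 9.23e-05) in WT and 0.66 (adjusted p = 7.02e-05) in bnagrp3, and was not called at 4 h.

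ARR1, ARR10 and ARR12 are the main type-B activators of Arabidopsis, and here only ARR1 genes among them were called higher. ARR1 BnaA05G0388100ZS rose by 0.48 (adjusted p = 0.00335) and 0.50 (adjusted p = 0.00271) in WT and by 0.88 (adjusted p = 1.52e-05) and 0.80 (adjusted p = 4.84e-05) in bnagrp3, at 4 h and 8 h. ARR1 BnaC05G0433000ZS rose by 0.34 and 0.45 in WT and by 0.96 and 1.11 in bnagrp3. A different copy, ARR1 BnaA03G0347400ZS, was lower in WT at 4 h, at 3.32, 2.99 and 3.09 TPM against 4.95, 3.85 and 4.22 TPM in mock (-0.37, adjusted p = 0.0155), a call lost without WT mock replicate 1 (adjusted p = 0.0723), and its other salt differences lay between -0.11 and -0.05. The difference between the genotypes in the response of ARR1 BnaC05G0433000ZS was 0.62 at 4 h and missed the threshold (adjusted p = 0.0557), as did 0.66 at 8 h (adjusted p = 0.0596). Of 2 ARR10 genes, 1 and 2 were called lower in WT at 4 h and 8 h and 0 and 1 in bnagrp3. All of the WT calls were lost without both WT libraries that stand apart. ARR10 BnaC07G0507300ZS went from -0.31 to -0.23 at 4 h (adjusted p = 0.015 to 0.0506), a call also lost without WT 4 h replicate 2 alone (adjusted p = 0.0707), and from -0.30 to -0.22 at 8 h (adjusted p = 0.0188 to 0.0557), also lost without WT mock replicate 2 or WT 8 h replicate 3 alone (adjusted p up to 0.0912). ARR10 BnaA03G0529600ZS went from -0.30 to -0.23 at 8 h (adjusted p = 0.0411 to 0.15) and was lost in 6 of 18 leave-outs of 1 library (adjusted p up to 0.156). Neither ARR12 gene was called by limma in a salt comparison, and 0 had an unadjusted p under 0.05, as had 0 of the ARR10 genes in bnagrp3 at 4 h.

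The cytokinin oxidases were led by CKX7, the cytosolic form in Arabidopsis. The summed CKX level rose from a mean of 27.3 TPM in WT mock to 77.9 TPM at 4 h and 70.0 TPM at 8 h, and from 36.1 to 91.4 and 85.3 TPM in bnagrp3, as sums with no test of their own. CKX7 made up 70.1% of that sum in WT mock and 90.9% at 8 h, and 79.8% and 92.5% in bnagrp3. Of 9 CKX genes tested in WT, 4 were called higher and 1 lower at 4 h and 2 and 2 at 8 h, while bnagrp3 had 4 and 1 at 4 h and 3 and 2 at 8 h. The higher calls are 44.4%, 22.2%, 44.4% and 33.3% of the 9 genes, where 26% to 31.3% of all genes were called higher. Both CKX5 genes and CKX3 BnaA10G0128000ZS had fewer than 3 mock libraries at 1 TPM and passed the filter through salt libraries. They supplied 2 of the 4 higher calls in WT at 4 h and 3 of the 4 in bnagrp3, so these shares are raised by the filter and nothing is read from them. The lower calls are 11.1%, 22.2%, 11.1% and 22.2%, beside 20.5%, 17.3%, 23.5% and 18.4% of all genes. All were CKX6 calls. CKX6 BnaC08G0420600ZS, with fewer than 3 salt libraries at 1 TPM, was among them in WT at 4 h and in both genotypes at 8 h. Nothing is read from the lower shares either.

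CKX7 BnaA02G0088800ZS stood at 8.48, 6.85 and 9.04 TPM in WT mock, 51.03, 33.96 and 41.47 TPM at 4 h and 45.81, 54.45 and 40.53 TPM at 8 h. In bnagrp3 it stood at 7.08, 6.05 and 5.88 TPM in mock, 29.07, 30.43 and 30.59 TPM at 4 h and 30.00, 29.84 and 33.18 TPM at 8 h. Every salt library was above every mock library, and 4 h and 8 h overlapped. The rise was 2.23 (SE 0.14, adjusted p = 9.07e-09) and 2.39 (adjusted p = 4.5e-09) in WT and 2.08 (adjusted p = 1.6e-08) and 2.13 (adjusted p = 1.46e-08) in bnagrp3. CKX7 BnaA10G0168500ZS rose by 0.37 (adjusted p = 0.0141) and 0.67 (adjusted p = 0.000194) in WT, and its differences in bnagrp3 were 0.26 (adjusted p = 0.0657) and 0.07 (adjusted p = 0.634).

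CKX7 BnaC02G0107100ZS was uneven among WT salt libraries. It read 0.31, 30.34 and 10.34 TPM in WT at 4 h and 4.87, 0.46 and 12.33 TPM at 8 h, beside 2.96, 1.78 and 3.22 TPM in mock. In bnagrp3 the libraries were even, with 14.55, 13.28 and 11.07 TPM in mock, 38.48, 35.93 and 36.80 TPM at 4 h and 35.93, 38.92 and 35.43 TPM at 8 h. Among the WT salt libraries, those with the higher values at each time, 4 h replicate 2 and 8 h replicate 3, are those with the highest level of the 326-gene set, and those with the lowest, 4 h replicate 1 and 8 h replicate 2, are those where that level is 0. The part this plays was not tested. The gene was not called in a salt comparison, with 1.11 (SE 0.88, adjusted p = 0.328) in WT at 4 h and 1.45 (adjusted p = 0.185) in bnagrp3, where all salt libraries lie above mock. The model holds 1 spread per gene for all groups. CKX7 BnaA02G0088800ZS has its lowest WT salt values in 4 h replicate 2, at 33.96 TPM, and 8 h replicate 3, at 40.53 TPM, the opposite order.

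CKX5, a secreted form in Arabidopsis, rose at 4 h and had receded by 8 h. CKX5 BnaC06G0415500ZS gave 0.41, 0.32 and 0.18 TPM in WT mock, 3.31, 3.74 and 3.35 TPM at 4 h and 1.56, 0.55 and 0.45 TPM at 8 h. In bnagrp3 it gave 0.34, 0.53 and 0.46 TPM in mock, 1.74, 2.86 and 2.44 TPM at 4 h and 0.48, 0.76 and 1.21 TPM at 8 h. The 4 h libraries lay above all others of their genotype. The 4 h rise was 1.78 (SE 0.20, adjusted p = 5.46e-06) in WT and 1.20 (adjusted p = 0.000166) in bnagrp3, on a scale that understates the change of genes this low. Both CKX5 genes were tested because of their salt libraries, since fewer than 3 mock libraries reached 1 TPM. CKX5 BnaA07G0352600ZS rose at 4 h by 1.37 (adjusted p = 0.000561) in WT and 1.81 (adjusted p = 3.76e-05) in bnagrp3.

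CKX6, also secreted in Arabidopsis, fell. CKX6 BnaA09G0570300ZS read 2.33, 2.61 and 2.70 TPM in WT mock, 2.30, 1.85 and 1.90 TPM at 4 h and 0.83, 0.86 and 0.75 TPM at 8 h. In bnagrp3 it read 3.10, 3.09 and 2.66 TPM in mock, 1.85, 1.30 and 1.74 TPM at 4 h and 1, 0.90 and 0.69 TPM at 8 h. All 4 h and 8 h libraries lay below mock, and 8 h was below 4 h. The fall at 8 h was -0.97 (SE 0.11, adjusted p = 4.1e-06) in WT and -1.09 (adjusted p = 1.16e-06) in bnagrp3. At 4 h the difference was -0.24 (adjusted p = 0.0909) in WT and -0.59 (adjusted p = 0.000322) in bnagrp3.

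**Figure D3:**
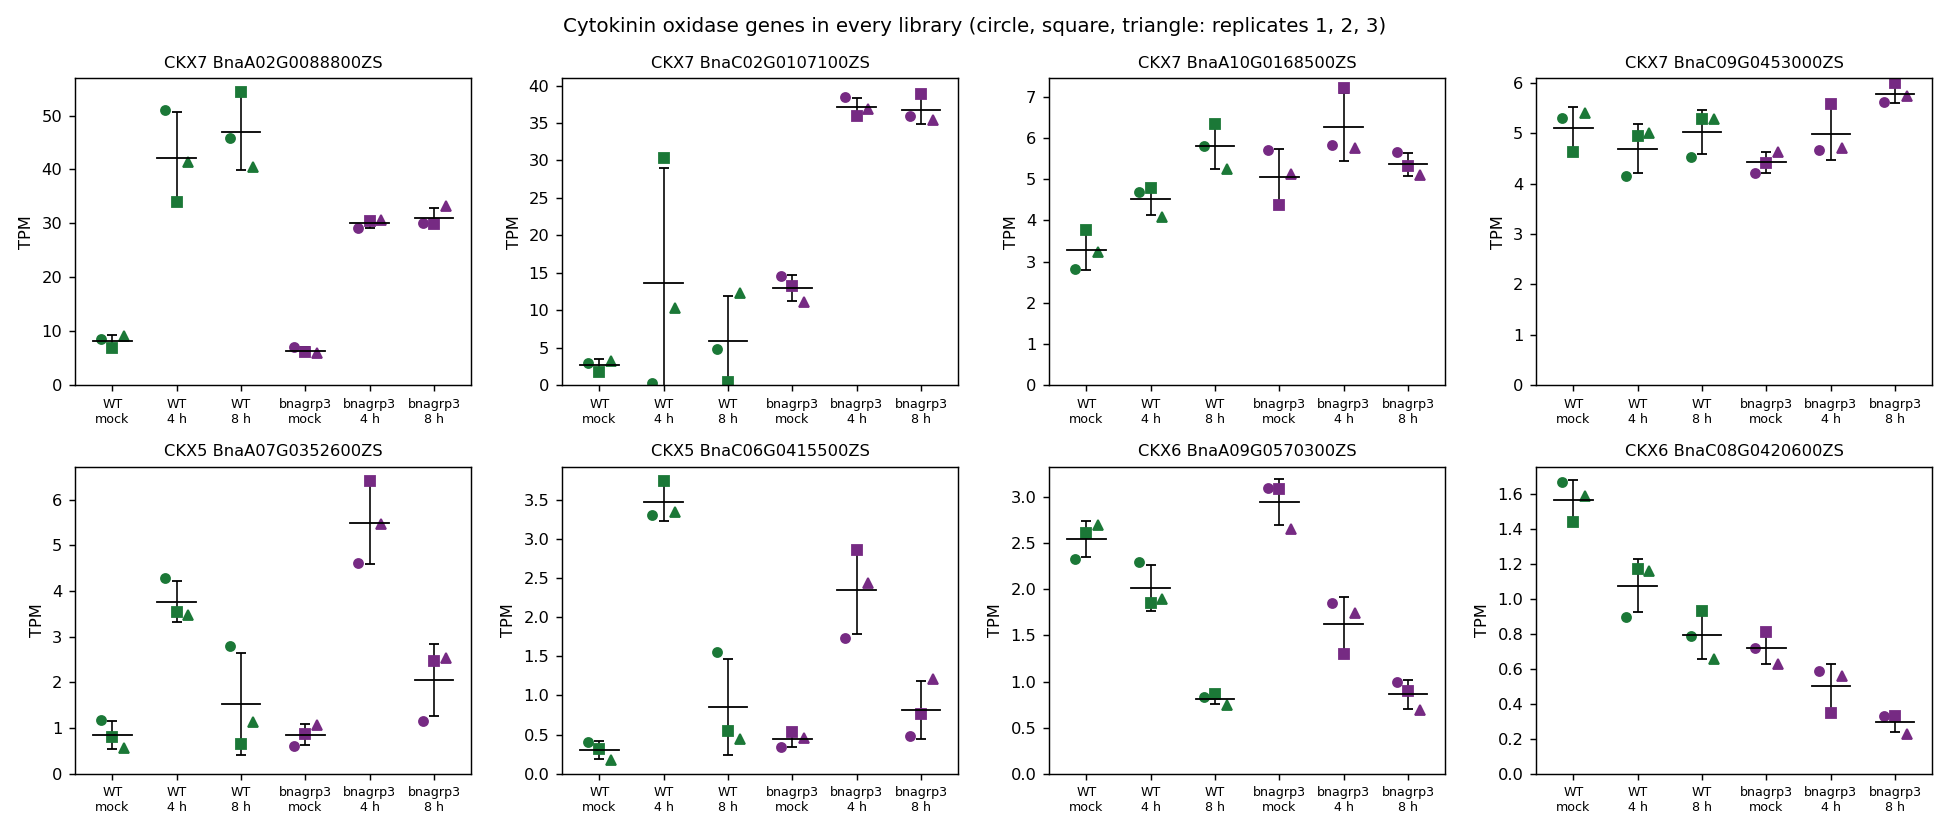
TPM of 8 CKX genes in each of the 18 libraries, with 1 panel per gene on a linear axis; points are libraries, the short line is the mean of the 3 libraries of a group and the bars are the SD, cut at 0. CKX7 BnaA02G0088800ZS is high in all salt groups, CKX5 peaks at 4 h, CKX6 declines, and CKX7 BnaC02G0107100ZS scatters from 0.31 to 30.34 TPM among the WT salt libraries.

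Between 4 h and 8 h of salt the type-A decline continued. In each genotype 2 members were called higher and 13 lower at 8 h than at 4 h, where 8.99% and 5.75% of all genes were called higher and lower in WT and 10.3% and 5.05% in bnagrp3. Of the 13 lower members, 10 in WT and 9 in bnagrp3 were type-A and 3 in each were CKX. ARR4 BnaC08G0202000ZS fell by 1.56 (adjusted p = 0.000124) in WT and 1.74 (adjusted p = 7.36e-05) in bnagrp3, and ARR7 BnaA08G0253500ZS by 0.96 (adjusted p = 0.00244) and 0.87 (adjusted p = 0.00421). CKX5 BnaC06G0415500ZS fell by 1.32 (adjusted p = 0.000845) and 0.89 (adjusted p = 0.00949). The fall of CKX5 BnaA07G0352600ZS, -0.9998 in WT (adjusted p = 0.0195) and -1.12 in bnagrp3 (adjusted p = 0.0106), was lost without any of 3 libraries in WT (adjusted p up to 0.087) and without bnagrp3 8 h replicate 1 (adjusted p = 0.0536). Without both WT libraries that stand apart 10 of 14 named WT calls held. Those lost were CKX5 BnaA07G0352600ZS (adjusted p = 0.102), ARR7 BnaC05G0160100ZS (adjusted p = 0.066), ARR9 BnaA09G0525400ZS (adjusted p = 0.0538) and ARR9 BnaC04G0302900ZS (adjusted p = 0.123). Both higher members were the ARR14 genes in each genotype, with ARR14 BnaA02G0317500ZS higher by 0.96 and 0.84.

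Between the genotypes, single copies of several names differed. In mock 6 of 61 members were called higher in bnagrp3 and 7 lower, where 9.1% and 12.4% of all genes were. At 4 h 3 were higher and 7 lower, beside 9.89% and 13.7% of all genes, and at 8 h 5 and 6, beside 11.4% and 12%. The shares are near those of all genes. The counts hang on few libraries: the 10 calls at 4 h became 3 without WT 4 h replicate 1 and 16 without both WT libraries that stand apart, the 11 at 8 h became 4 without WT 8 h replicate 2, and the 13 in mock became 8 without bnagrp3 mock replicate 2. In all, 22 members were called in at least 1 treatment and 3 in all 3 treatments, which were ARR7 BnaC05G0160100ZS, ARR4 BnaC05G0083500ZS and CKX6 BnaC08G0420600ZS. The matching counts over all genes were not made, so nothing is read from the 22 and the 3. Near-identical copies on the A and C subgenomes can share reads, and how the counting divided such reads is not stated, so a difference between copies is uncertain to that extent.

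ARR7 BnaC05G0160100ZS was lower in bnagrp3 throughout. It read 16.52, 22.07 and 25.05 TPM in WT mock, 6.06, 6.92 and 7.17 TPM at 4 h and 3.57, 4.20 and 4.53 TPM at 8 h. In bnagrp3 it read 8.13, 8.00 and 11.24 TPM, then 3.65, 2.71 and 2.71 TPM, then 1.74, 1.34 and 1.54 TPM. The genotypes did not overlap in any treatment, and in mock the difference was -1.13 (SE 0.16, adjusted p = 0.000133). It came to -0.95 at 4 h (adjusted p = 0.000523), and 8 h gave -1.004 (adjusted p = 0.000297). These calls held when any library was left out and without both WT libraries that stand apart.

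A different ARR7 copy, ARR7 BnaC08G0250800ZS, was higher in bnagrp3 mock. Its values were 18.82, 22.58 and 23.65 TPM in WT mock and 35.37, 32.11 and 39.80 TPM in bnagrp3 mock, with no overlap and a difference of 0.70 (SE 0.17, adjusted p = 0.00957). Under salt the differences were -0.14 (adjusted p = 0.612) and 0.09 (adjusted p = 0.763). The ARR7 genes together summed to a mean of 78.5 TPM in WT mock and 84.1 TPM in bnagrp3 mock.

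ARR4 BnaC05G0083500ZS was higher in bnagrp3. It read 12.52, 15.25 and 10.49 TPM in WT mock and 30.75, 23.43 and 30.28 TPM in bnagrp3 mock, then 5.11, 5.05 and 5.74 TPM against 9.81, 6.84 and 9.60 TPM at 4 h, and 5.08, 2.54 and 3.74 TPM against 6.87, 6.63 and 6.56 TPM at 8 h. The genotypes were separate in each treatment. In mock the difference was 1.09 (SE 0.18, adjusted p = 0.000715). It came to 0.62 at 4 h (adjusted p = 0.0258), and 8 h gave 0.72 (adjusted p = 0.0109). The 4 h call was lost without any of 4 libraries (adjusted p up to 0.0931) and without both WT libraries that stand apart (adjusted p = 0.0622), and the 8 h call without WT 8 h replicate 2 (adjusted p = 0.06). ARR4 BnaC05G0082300ZS was also higher in bnagrp3 mock, by 0.73 (SE 0.17, adjusted p = 0.00701).

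ARR9 BnaC08G0369200ZS differed most in mock. It stood at 23.43, 29.36 and 27.69 TPM in WT mock and at 7.03, 5.93 and 5.89 TPM in bnagrp3 mock, a difference of -1.93 (SE 0.16, adjusted p = 7.35e-07). Under salt WT came down to 11.34, 6.66 and 7.85 TPM at 4 h and 4.40, 4.28 and 3.97 TPM at 8 h, while bnagrp3 gave 5.31, 4.51 and 6.03 TPM and 2.92, 2.71 and 3.72 TPM. The WT libraries stayed above the bnagrp3 libraries at each time, with a smaller gap, -0.59 (adjusted p = 0.0139) at 4 h, lost without WT 4 h replicate 1 or bnagrp3 4 h replicate 2 (adjusted p up to 0.0667), and -0.35 (adjusted p = 0.131) at 8 h. The salt response was -1.56 (adjusted p = 1.48e-06) and -2.41 (adjusted p = 1.43e-08) in WT and -0.22 (adjusted p = 0.274) and -0.83 (adjusted p = 0.000484) in bnagrp3. The responses differed by 1.34 at 4 h (SE 0.22, adjusted p = 0.00681) and by 1.58 at 8 h (SE 0.22, adjusted p = 0.00264), in all leave-outs of 1 library and also without both WT libraries that stand apart (1.19, adjusted p = 0.00934, and 1.55, adjusted p = 0.00258). ARR9 genes summed to a mean of 45.7 TPM in WT mock and 24.7 TPM in bnagrp3 mock, and to 11.1 and 16.6 TPM at 8 h.

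The difference in salt response was called in 2 of 61 members at 4 h, where 2.46% of all genes were called, and in 1 of 61 at 8 h, where 1.38% were. The other member called at 4 h was ARR15 BnaC06G0411100ZS, named for a meristem regulator close to ARR7 in Arabidopsis. It read 5.16, 5.80 and 7.67 TPM in WT mock, 2.32, 0.64 and 2.42 TPM at 4 h and 3.20, 2.11 and 0.72 TPM at 8 h, against 12.49, 8.60 and 10.41 TPM, 0, 0.47 and 0.17 TPM, and 0.29, 0.19 and 0.28 TPM in bnagrp3. Mock libraries of bnagrp3 lay above WT and salt libraries below it. At 4 h the genotypes differed by -1.15 (adjusted p = 0.0158). The response differed by -1.82 at 4 h (SE 0.44, adjusted p = 0.0451) and by -1.85 at 8 h, which missed the threshold (adjusted p = 0.0572). The 4 h call was lost in 15 of 18 leave-outs of 1 library (adjusted p up to 0.108), and without both WT libraries that stand apart it was -2.17 (adjusted p = 0.00105). Its lowest WT salt values are in 4 h replicate 2 and 8 h replicate 3, the libraries with the highest level of the 326-gene set.

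ARR15 BnaA07G0249600ZS ran opposite to that copy among WT salt libraries. It read 1.06, 6.50 and 1.38 TPM at 4 h and 2.30, 0.76 and 4.88 TPM at 8 h, so the values of 4 h replicate 2 and 8 h replicate 3 were the highest. In mock it read 4.03, 6.31 and 5.01 TPM in WT and 4.95, 2.23 and 2.75 TPM in bnagrp3. It was called in no salt or genotype comparison. The relation of either ARR15 copy to the 326-gene set was not tested.

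**Figure D4:**
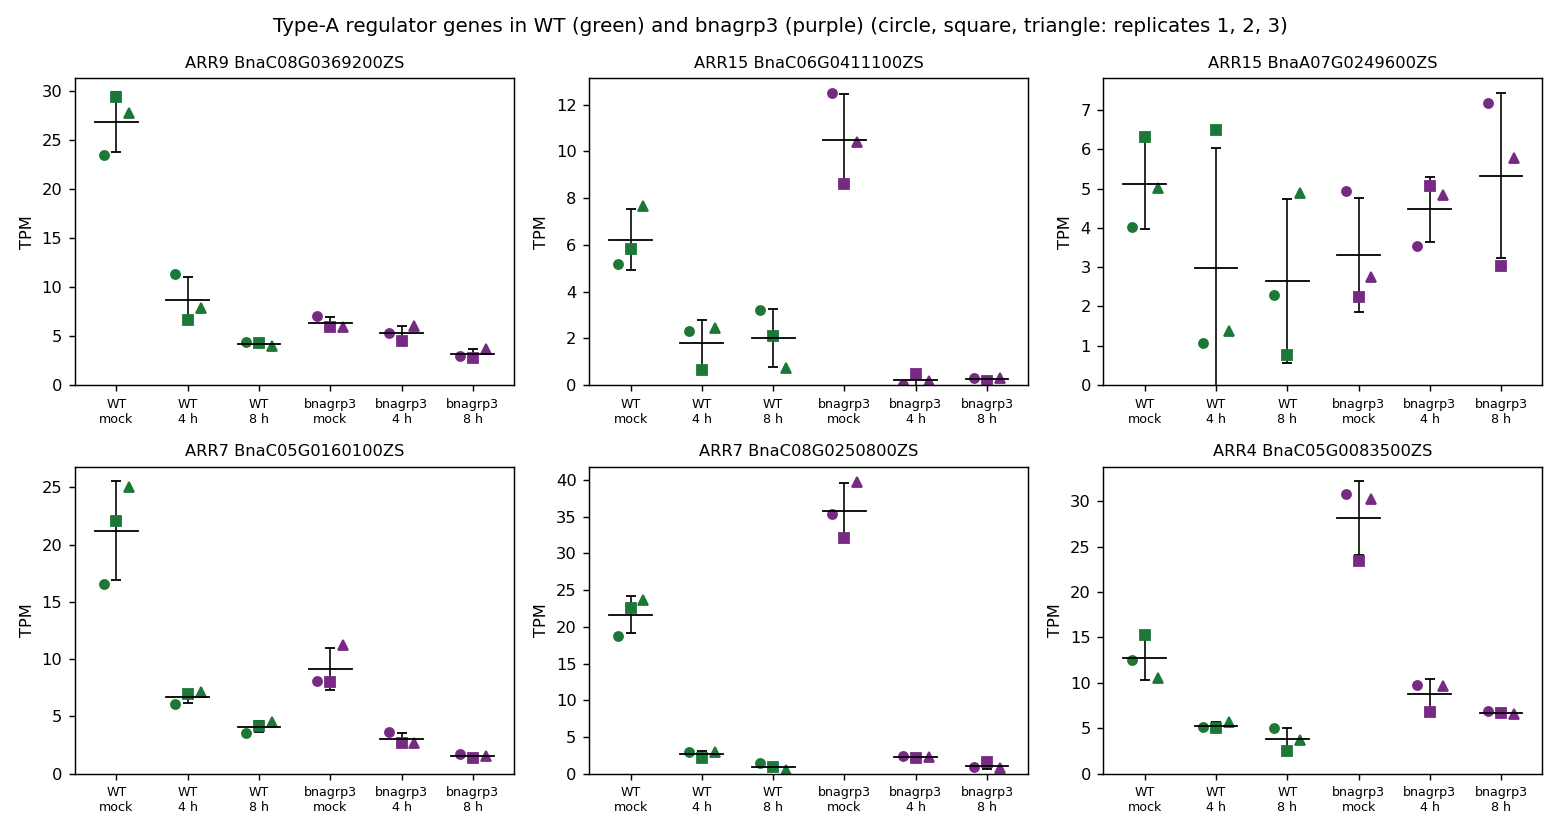
TPM of 6 type-A genes by library, with WT in green and bnagrp3 in purple in mock, 4 h and 8 h of salt; points are libraries, short lines are means of 3 libraries and bars are the SD, cut at 0. ARR9 BnaC08G0369200ZS and ARR7 BnaC05G0160100ZS lie lower in bnagrp3, ARR4 BnaC05G0083500ZS lies higher, and the ARR15 panels show the scatter of WT salt libraries.

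Among type-B regulators, ARR2 BnaC01G0242300ZS was lower in bnagrp3 mock by -0.46 (adjusted p = 0.00832), where it read 7.30, 5.27 and 5.34 TPM in WT and 4.72, 3.84 and 3.56 TPM in bnagrp3. ARR12 BnaA04G0167500ZS was lower in bnagrp3 by -0.58 at 4 h (adjusted p = 0.0139) and by -0.47 at 8 h (adjusted p = 0.0381). These calls were lost in 3 and 5 leave-outs (adjusted p up to 0.0599 and 0.166), all of WT or bnagrp3 libraries of the same time.

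Of the oxidases, CKX7 BnaA02G0088800ZS was lower in bnagrp3 at 8 h by -0.57 (adjusted p = 0.00784) in every leave-out, and at 4 h by -0.46 (adjusted p = 0.0286), a call lost in 5 leave-outs (adjusted p up to 0.142). Without both WT libraries that stand apart the differences were -0.67 (adjusted p = 0.00142) and -0.60 (adjusted p = 0.00296). CKX7 BnaC02G0107100ZS was higher in bnagrp3 at 8 h by 2.96 (SE 0.88, adjusted p = 0.0238), lost in 4 leave-outs (adjusted p up to 0.125) and 3.69 (adjusted p = 0.00157) without both WT libraries that stand apart. CKX7 BnaA10G0168500ZS was higher in bnagrp3 mock by 0.51 (SE 0.11, adjusted p = 0.00526), and at 4 h by 0.39 (adjusted p = 0.0208), lost in 2 leave-outs (adjusted p up to 0.0973).

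CKX6 BnaC08G0420600ZS, singled out after its values were seen because it was called in all 3 treatments, gave 1.67, 1.44 and 1.59 TPM in WT mock and 0.72, 0.81 and 0.63 TPM in bnagrp3 mock. In mock the difference was -0.58 (SE 0.11, adjusted p = 0.00215). It came to -0.47 at 4 h (adjusted p = 0.0079), and 8 h gave -0.47 (adjusted p = 0.00785), at levels under 2 TPM. The gene passed the filter through WT libraries alone, so it had to be higher in WT to be tested, and nothing is read from its p-values.

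The other calls between the genotypes did not all hold. In mock ARR4 BnaA09G0657800ZS was higher in bnagrp3 by 0.48 (adjusted p = 0.0382) and ARR5 BnaC01G0288500ZS by 0.73 (adjusted p = 0.0283), and both were lost in leave-outs, 3 and 5 of 18. ARR2 BnaA01G0191600ZS at -0.41 (adjusted p = 0.0465), ARR1 BnaC05G0433000ZS at -0.35 (adjusted p = 0.0393) and ARR10 BnaC07G0507300ZS at -0.29 (adjusted p = 0.0416) were lower in mock and lost in 10, 5 and 11. At 4 h ARR8 BnaA05G0023700ZS at -0.69 (adjusted p = 0.0304) was lost in 4 and ARR1 BnaA03G0347400ZS at 0.34 (adjusted p = 0.0415) in 11. At 8 h ARR9 BnaA07G0197600ZS at 0.68 (adjusted p = 0.0334) was lost in 4, ARR10 BnaC07G0507300ZS at -0.30 (adjusted p = 0.0305) in 3, and ARR5 BnaA06G0170100ZS at 0.67 (adjusted p = 0.0494) had overlapping libraries. ARR9 BnaA04G0031600ZS was higher in bnagrp3 at 8 h by 1.05 (SE 0.25, adjusted p = 0.00595) in every leave-out, and by 0.82 (adjusted p = 0.0142) without both WT libraries that stand apart.

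The rest of the pathway gave a mixed picture around the regulators. Of 181 further cytokinin genes, listed by product name with earlier results of these data known, 101 were tested. In WT 36 were called higher and 23 lower at 4 h and 40 and 17 at 8 h, and in bnagrp3 36 and 23 and 40 and 20. The higher calls are 35.6%, 39.6%, 35.6% and 39.6% of the genes tested, beside 26%, 29%, 28.7% and 31.3% of all genes, and the lower calls 22.8%, 16.8%, 22.8% and 19.8%, near the 20.5%, 17.3%, 23.5% and 18.4% of all genes. Their receptors, which start the signal, did not share a direction. AHK4 BnaC07G0273500ZS, matching the receptor of high affinity for cytokinin bases, read 5.06, 5.41 and 4.84 TPM in WT mock, 1.13, 1.93 and 1.70 TPM at 4 h and 0.46, 0.32 and 0.46 TPM at 8 h, with no overlap. Its fall was -1.25 (adjusted p = 4.58e-07) and -2.11 (adjusted p = 1.76e-09) in WT and -1.28 (adjusted p = 2.69e-07) and -2.09 (adjusted p = 1.89e-09) in bnagrp3, and AHK4 BnaA06G0406000ZS fell by 1.31 and 1.72 in WT and by 1.04 and 1.98 in bnagrp3. AHK3 BnaC07G0152200ZS rose by 1.18 (adjusted p = 9.75e-09) and 1.22 in WT and by 1.47 and 1.47 in bnagrp3. Of 10 receptor genes, 2 were called higher and 3 lower in WT at 4 h, and 6 and 2 at 8 h. The higher share in WT went from 20% to 60.0%, beside 26% and 29% of all genes. In bnagrp3, 4 receptor genes were called higher and 2 lower at 4 h, and 6 and 2 at 8 h. The higher shares there were 40% and 60%, beside 28.7% and 31.3% of all genes.

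Of 14 phosphotransfer genes, the AHP carriers, 7 were called higher and 1 lower in WT at 4 h and 8 and 0 at 8 h, and 5 and 2 and then 8 and 0 in bnagrp3. The higher shares were 50% and 57.1% in WT and 35.7% and 57.1% in bnagrp3, the third of these closest to the 28.7% of all genes. AHP1 BnaC01G0379000ZS rose by 1.39 and 1.95 in WT and by 1.61 and 1.89 in bnagrp3. AHP4 BnaA03G0345700ZS rose by 1.20 and 2.01 in WT and by 1.58 and 3.09 in bnagrp3. Of 14 cytokinin response factors, an AP2/ERF branch of the pathway, 7 and 7 were called higher in WT and 4 and 6 in bnagrp3, with 0 lower by limma and 0 lower at an unadjusted p under 0.05. The higher share was 50% at both times in WT and 28.6% and 42.9% in bnagrp3, so at 4 h in bnagrp3 it matched the 28.7% of all genes. CRF2 BnaC01G0172200ZS rose by 1.91 and 1.82 in WT and by 1.87 and 2.03 in bnagrp3.

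KMD F-box genes, whose Arabidopsis proteins target type-B regulators for degradation, were called higher in 8 and 6 of 10 in WT and in 6 and 6 in bnagrp3, at 4 h and 8 h. These are 80.0% and then 60.0% of the genes tested in WT and 60.0% at both times in bnagrp3, beside at most 31.3% of all genes. SKIP20 BnaC08G0392100ZS rose by 1.32 and 1.36 in WT and by 1.46 and 1.35 in bnagrp3. At1g15670 BnaA06G0105600ZS was called higher in WT and not in bnagrp3, going from 0.44, 0.15 and 0.09 TPM in mock to 5.82, 3.61 and 4.40 TPM at 4 h and 3.22, 4.54 and 2.63 TPM at 8 h. In bnagrp3 its difference was 0.07 and 0.21, and the responses differed by -2.11 (adjusted p = 0.000803) and -1.64 (adjusted p = 0.00498). No bnagrp3 library passed 0.28 TPM, so the gene was tested only because of its WT salt libraries, which favours both the WT rise and the difference. The WT shares of KMD genes called higher include this gene, so the filter raised them to that extent.

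Genes that make cytokinins were mixed, and those that move them were mostly called lower or not called. Of 32 synthesis genes, 9 were called higher and 11 lower in WT at 4 h and 10 and 8 at 8 h, and in bnagrp3 12 and 10 and then 9 and 10. The higher shares in WT, 28.1% and 31.2%, are near the 26% and 29% of all genes, and the lower shares were 34.4% and 25.0% beside 20.5% and 17.3%. In bnagrp3 the higher shares were 37.5% and 28.1%, beside 28.7% and 31.3% of all genes. The lower shares there were 31.2% at both times, beside 23.5% and 18.4%. IPT3, a nitrate-responsive synthesis enzyme in Arabidopsis, was called lower in 3 of 3 tested genes in all 4 comparisons, though these genes passed the filter through mock libraries alone. They count among the lower synthesis calls, so the filter raised the lower shares and nothing is read from those shares. LOG8 BnaC09G0050700ZS, of the family that releases the active base, read 15.96, 14.29 and 16.06 TPM in WT mock and 1.63, 1.32 and 1.14 TPM at 4 h, with a fall of -2.80 (adjusted p = 3.41e-09), and in bnagrp3 -2.61 at 4 h. Another copy, LOG8 BnaC09G0537300ZS, rose by 1.86 and 1.72 in WT and by 1.77 and 1.76 in bnagrp3. Of 15 transport genes, 8 and 7 were called lower in WT and 9 and 8 in bnagrp3, with 1, 1, 1 and 2 higher. The lower shares were 53.3% and 46.7% in WT and 60.0% and 53.3% in bnagrp3, beside at most 23.5% of all genes. PUP14 BnaC05G0167600ZS, named for a cytokinin importer, fell by 2.15 and 2.47 in WT and by 2.05 and 2.23 in bnagrp3. Among 6 conjugation genes, which inactivate the hormone by adding glucose, 2 and 2 were called higher in WT, 33.3% each, and 4 and 3 in bnagrp3, 66.7% and 50%, beside 26% to 31.3% of all genes, with UGT76C1 BnaC09G0589400ZS up by 1.28 and 0.86 in WT and by 1.90 and 1.45 in bnagrp3.

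**Figure D5:**
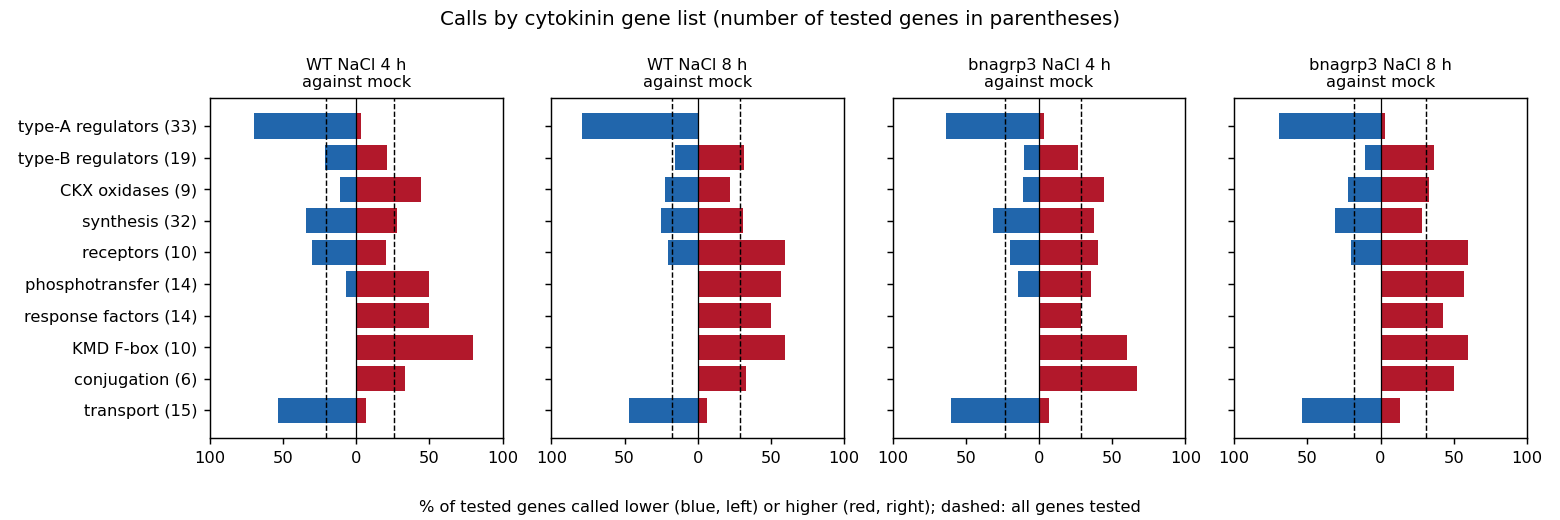
Percent of tested genes called lower, to the left, and higher, to the right, in each class of cytokinin genes and in all genes for the 4 salt comparisons; the dashed lines mark all 57923 genes tested. The type-A bars reach 63.6% to 78.8% to the left, and no other class reaches that far on the lower side.

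Rescaling the TPM by median of ratios brought the median difference of all genes at 8 h from 0.14 to 0.01 in both genotypes. No named cytokinin gene changed direction, and members called were 8 higher and 31 lower in WT at each time, 10 and 27 in bnagrp3 at 4 h and 8 and 30 at 8 h. Among the oxidases the bnagrp3 8 h calls of CKX5 BnaA07G0352600ZS (0.69, adjusted p = 0.0392) and CKX7 BnaC09G0453000ZS (0.32, adjusted p = 0.00819) were lost, as was that of ARR2 BnaA01G0191600ZS between the genotypes in mock. Over all genes the share of calls that were higher went from 62.6% to 50.3% in WT at 8 h and from 62.9% to 50.2% in bnagrp3 at 8 h, and between 4 h and 8 h from 60.99% to 45.5% in WT and from 67.0% to 45.6% in bnagrp3.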

How the data were processed

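The authors sequenced poly(A) RNA of 18 libraries and deposited a gene table of TPM, as TPM per the file headers; fastp, HISAT2 and featureCounts are named in the submitters' processing notes without versions. Genome build, annotation, strand use and the handling of shared reads were not given in the sources used here. Without strand, reads of a gene and an antisense partner cannot be told apart.

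The deposited TPM were taken as log2(TPM + 1) for the 57923 genes at 1 TPM or more in at least 3 of 18 libraries. limma 3.58.1 in R 4.3.3 fitted 1 mean per group to all 18 libraries with an intensity trend (12 residual degrees of freedom). Two-sided p-values were adjusted over every gene kept (Benjamini-Hochberg), and an adjusted p under 0.05 was a call. Fold changes are on the log2(TPM + 1) scale, which understates low genes. The procedure was tested on simulated data. Figures used matplotlib 3.10.9 in Python 3.11.15.

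The members, the lists and the tests were chosen with earlier results of these data known. Named genes are, per class and salt comparison, up to 3 rises and 3 falls among called genes with separate libraries and a group mean of 2 TPM or more; all members called between genotypes or in a difference of responses at that level; and the most abundant of each class. Not every such gene is printed. For the other pathway lists up to 2 rises and 2 falls follow the same rule. Alternatives were 0.1 as pseudocount, filtering at 5 TPM or not at all, rescaling, fitting the compared groups alone, a block for replicate number, requiring 1 log2 unit as well, no intensity trend, leaving out each library and leaving out both WT libraries that stand apart. No 2 libraries were identical. No sequences are printed.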

Additional observations from a re-analysis of the deposited data

Results flagged for a closer look

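For 7 results the salt response differed between WT and bnagrp3 by limma's test of the difference. Of the regulators, ARR9 BnaC08G0369200ZS differed by 1.34 at 4 h and by 1.58 at 8 h, and ARR15 BnaC06G0411100ZS by -1.82 at 4 h. Of the other pathway genes, the KMD F-box gene At1g15670 BnaA06G0105600ZS differed by -2.11 at 4 h and -1.64 at 8 h. That gene was tested only because of its WT salt libraries, since no bnagrp3 library passed 0.28 TPM, which favours such a difference.

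An unplaced gene model named AHK3, a receptor, differed by 1.50 at 4 h (adjusted p = 0.0396), where it read 1.91, 1.26 and 1.10 TPM in WT mock and 0.43, 0.25 and 0.25 TPM in WT at 4 h, against 7.18, 7.32 and 7.54 TPM and 11.49, 11.31 and 12.79 TPM in bnagrp3. IPT3 BnaC04G0257300ZS differed by -1.23 at 8 h (adjusted p = 0.0224), where WT went from 1.77, 2.03 and 1.14 TPM to 0.11, 0 and 0.26 TPM and bnagrp3 from 4.63, 4.45 and 5.03 TPM to 0.06, 0.06 and 0 TPM. That gene passed the filter through mock libraries alone.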

How the results depend on the processing

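No result changed direction under any alternative. Of 5010 single-gene settings 4695 kept the call and 315 lost it. By result, 110 of 187 single-gene calls held under every alternative that tested the gene, and the rest were lost under at least 1. The alternatives include the threshold of 1 log2 unit, under which smaller differences are lost by construction. With a further threshold of 1 log2 unit, members called higher after salt came to 4 and 2 in WT and 5 and 4 in bnagrp3 (4 h, 8 h), those called between 4 h and 8 h to 5 in WT and 4 in bnagrp3, those between genotypes to 3 in mock, 1 at 4 h and 4 at 8 h, and other cytokinin genes to 36 and 34 in WT and 36 and 32 in bnagrp3. With a filter of 5 TPM, 6 members were higher in bnagrp3 at 4 h, 6 and 7 differed between genotypes at 4 h and 8 h, and 37, 36 and 37 other cytokinin genes were called in WT at 4 h, WT at 8 h and bnagrp3 at 4 h, where fewer genes were tested. Fitting only the groups compared gave 5 members higher in WT at 4 h, 6 between 4 h and 8 h in WT, 1 and 7 between genotypes at 4 h and 8 h, and 1 member differing in 4 h response, which was also 1 with a pseudocount of 0.1 and with no filter. Without both WT libraries that stand apart, 16 members differed between genotypes at 4 h, and 6 and 3 in response at 4 h and 8 h. Except by construction, the cause was not tested.

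Leaving out 1 library gave 8 to 10, 8 to 9, 9 to 11 and 8 to 12 members higher and 25 to 29, 28 to 31, 21 to 24 and 25 to 28 lower (WT 4 h, WT 8 h, bnagrp3 4 h, bnagrp3 8 h). It gave 13 to 17 in WT and 12 to 16 in bnagrp3 between 4 h and 8 h, and 8 to 14, 3 to 14 and 4 to 12 between genotypes in mock, 4 h and 8 h. Differences of response ranged from 1 to 4 at 4 h and 1 to 3 at 8 h, and other cytokinin genes over 52 to 61, 53 to 60, 54 to 61 and 51 to 62.

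Deviations of same-numbered libraries correlated from -0.43 to 0.07 across genes, and those of differently numbered libraries from -0.42 to 0.46. Of 18 libraries, 8 correlated best with their own number. The labels do not say whether the numbers pair samples, and weak correlations cannot settle it. With the replicate block 1 member differed in the 4 h response. Depth is unknown, so differences among genes near 1 TPM are limited by the spread of 3 libraries.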
